A study of Arabidopsis thaliana with 6 samples.

Results

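The 10 genes described here specify floral meristem identity and the identity of sepals, petals and stamens in Arabidopsis thaliana. They are LFY, UFO, AP1, FUL, AP2, AP3, PI, SUP, AGL24 and SVP, and they were found on the array by their locus codes. All 10 were present, with 13 probes, among 34176 genes on the array. The tissue was whole fertilised flowers at stage 15, taken from wild type and from a T-DNA mutant named atnaod. The mutant is disrupted in AtNAOD (AT4G17830), which encodes N-acetylornithine deacetylase, an enzyme that makes ornithine. Each genotype had 3 independent biological replicates, each a pool of about 100 flowers from 17 to 20 plants, and each replicate was read on 1 single-colour array. The plants of both genotypes were raised on soil at 25 °C with 16 h of light and 8 h of darkness. The labels name a single mutant. The comparison asked which of these transcripts differed in the flower when ornithine synthesis was disrupted.

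As background, LFY is a plant-specific transcription factor that commits a young primordium to become a flower, and it turns on AP1. UFO, an F-box protein, acts with LFY to turn on AP3. AP1 and AP2 specify sepals and petals, AP3 and PI together specify petals and stamens, and SUP keeps AP3 and PI out of the innermost whorl. AGL24 promotes and SVP represses the transition to flowering, and both later act in very young flowers beside AP1, where the corepressors LUG and SEU hold back organ identity genes. Of the 10, all except LFY, UFO, AP2 and SUP are MADS-box transcription factors.

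The values are the log2 intensity of a gene's probe after subtraction of the 75th percentile of its array, so that a value of 0 stands for a probe at that percentile. Values of different genes come from different probes and were not ranked against each other. The 75th percentile of processed intensity lay between 1318 and 3007 over the 6 arrays, between 73.1% and 79.2% of probes were well above background, and 0 spots were saturated. Replicates 1 and 2 of both genotypes shared a first slide (slide 1) and replicate 3 of both was on a second (slide 2), and having only 6 arrays limits how precise any value can be. At its main probe AtNAOD stood at 1.69 ± 0.07 (SD, n = 3) in wild type. On the 3 atnaod arrays it was not above background, which puts it at least 369-fold lower against the detection floor. The limma fit used the atnaod readings as they stood, in the background. Its adjusted p of 4.26e-07 is therefore not a test of that bound. A second AtNAOD probe was above background on all arrays and was 2.34-fold lower in atnaod.

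Most floral identity genes were read well above background in both genotypes, and AGL24 was the 1 gene that passed the test, higher in atnaod. Of the 10 genes, 8 passed the filter on signal, which asked that every array of 1 genotype or of both read the probe well above background, and each of the 8 was above background on all 6 arrays. LFY and UFO did not pass. Of the 8 tested, 1 rose and 0 fell at an adjusted p under 0.05 (limma, adjusted over all 24456 genes tested), and 1 had an unadjusted p under 0.05. Among all genes tested 5.78% were called, 2.72% higher and 3.06% lower, and 25.8% had an unadjusted p under 0.05. A single call among 8 genes therefore does not set the group apart from the rest of the transcriptome. The 8 changes had a median of 0.00 on the log2 scale, against -0.01 for all genes tested, with 4 above and 4 below 0. The median size of a change, without its sign, was 0.20 in the 8 genes and 0.17 in all genes. In 2 of the 8 the values of the genotypes did not overlap, against 32.3% of all genes.

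**Figure D1:**
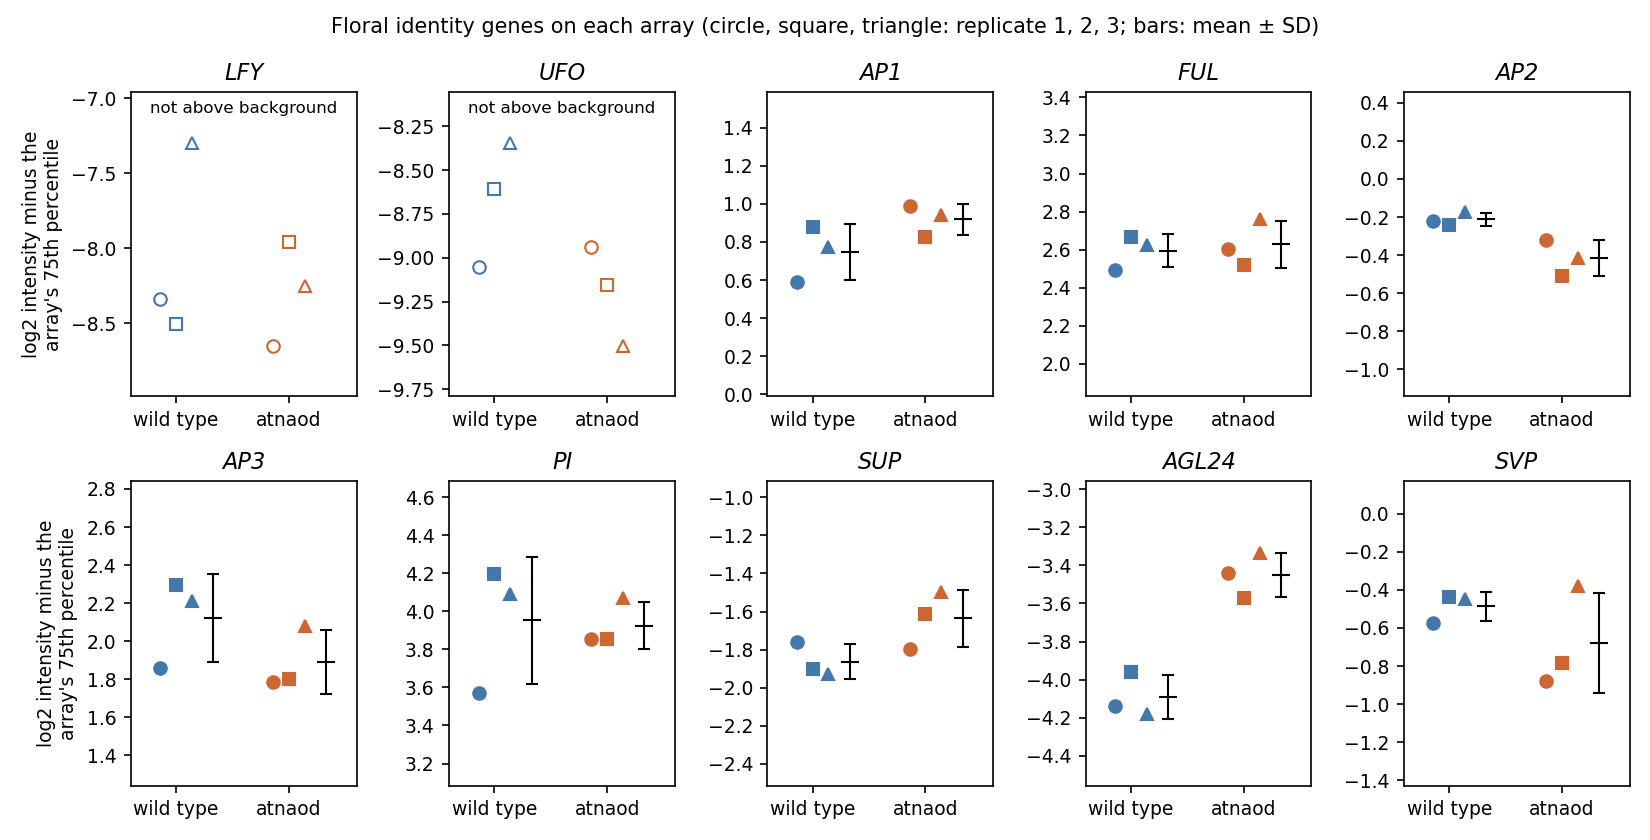
Value of each floral identity gene on each array, in log2 units relative to the array's 75th percentile, with wild type in blue and atnaod in orange, and the mean ± SD (n = 3) beside the points of tested genes. Open symbols mark LFY and UFO, which were not above background on any array. The AGL24 points of the 3 atnaod arrays lie above those of the 3 wild-type arrays, the AP2 points lie below, and the other 6 tested genes overlap. The vertical scales of LFY and UFO differ from the rest.

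LFY and UFO, which act in the youngest floral primordia, were not well above background in these flowers. LFY (AT5G61850; chromosome 5, 24844248 to 24846989, TAIR10.1) was read by 1 probe that was well above background on 0 of 6 arrays. Its probe read an intensity of 9.29, 7.20 and 8.38 in wild-type replicates 1 to 3, against 4.87, 11.4 and 4.43 in atnaod 1 to 3. UFO (AT1G30950; chromosome 1, 11035992 to 11037508) was likewise above background on 0 of 6 arrays, with intensities between 1.87 and 6.71. Signals of this size are not well above background in either genotype and carry no fold change. CLV3, the signalling peptide gene of meristem stem cells, was also above background on 0 of 6 arrays, while the meristem genes STM and KNAT1 were above background on all 6.

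AP1, which with LFY fixes floral meristem identity and later specifies sepals and petals, did not pass the test. AP1 (AT1G69120; chromosome 1, 25982294 to 25986349) stood at 0.59, 0.88 and 0.77 in wild type 1 to 3 and at 0.99, 0.82 and 0.94 in atnaod 1 to 3. The lowest atnaod value lay below the highest wild-type value, so that the genotypes overlapped. The change was 0.17 (SE 0.106, 95% interval -0.08 to 0.42, adjusted p = 0.358), with 0.17 on the first and 0.17 on the second slide. Wild type 1 was the lowest of the 6 values, and without it the change was 0.09.

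FUL, the nearest relation of AP1 among the genes described here and a regulator of fruit growth, was close in the genotypes at both of its probes. At the main probe FUL (AT5G60910; chromosome 5, 24502434 to 24506269) stood at 2.50, 2.66 and 2.62 in wild type and at 2.60, 2.52 and 2.76 in atnaod. The change was 0.03 (95% interval -0.21 to 0.27, adjusted p = 0.870), with opposite signs on the 2 slides (-0.02 and 0.14). At the second FUL probe, values were 1.34, 1.42 and 1.38 in wild type, against 1.48, 1.47 and 1.47 in atnaod. There the genotypes did not overlap, but the change was 0.10 and the adjusted p over all probes was 0.522. The interval at the main probe holds changes of up to 1.21-fold higher, so that a small rise of FUL is within the error.

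AP2, a factor of sepal and petal identity that also acts in ovules and seeds, was lower in each atnaod sample without passing the test. AP2 (AT4G36920; chromosome 4, 17400610 to 17403469) stood at -0.22, -0.24 and -0.17 in wild type and at -0.32, -0.51 and -0.42 in atnaod. The 3 wild-type values lay within 0.07 of each other, and all 3 atnaod values lay below them. The change was -0.21 (SE 0.0884, 95% interval -0.41 to 0.00, adjusted p = 0.200), with -0.19 on slide 1 and -0.24 on slide 2. The wild-type SD of 0.04 was the smallest of any tested gene of the group.

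AP3 and PI, whose proteins work as a pair in petals and stamens, did not pass the test, and both varied widely between wild-type replicates. AP3 (AT3G54340; chromosome 3, 20119140 to 20121314) stood at 1.86, 2.30 and 2.21 in wild type and at 1.78, 1.80 and 2.08 in atnaod. The 2 lowest atnaod values lay below every wild-type value, and the third lay among them. The change was -0.23 (95% interval -0.58 to 0.11, adjusted p = 0.366), with -0.36 without wild type 1 and -0.14 without wild type 2. PI (AT5G20240; chromosome 5, 6828904 to 6831515) stood at 3.57, 4.20 and 4.09 in wild type and at 3.85, 3.85 and 4.07 in atnaod. All 3 atnaod values of PI lay inside the wild-type range, which spanned 0.62, the widest of the tested genes. The change of PI was -0.03 (95% interval -0.44 to 0.38, adjusted p = 0.941). Its interval runs from a fold of 0.74 to a fold of 1.30, so that a change of PI inside that range is within the error. Both genes were lowest in wild type 1 within their genotype and highest in atnaod 3 within theirs.

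SUP, a zinc finger repressor at the border between stamens and carpels, had a higher mean in atnaod at both probes and did not pass the test. At the main probe SUP (AT3G23130; chromosome 3, 8242256 to 8243372) stood at -1.76, -1.90 and -1.93 in wild type and at -1.80, -1.61 and -1.50 in atnaod. Wild type 1 lay just above atnaod 1, so the genotypes overlapped. The change was 0.23 (95% interval -0.03 to 0.48, adjusted p = 0.238), with 0.13 on slide 1 and 0.43 on slide 2. At the second SUP probe the values were -2.55, -2.64 and -2.83 in wild type, against -2.41, -2.32 and -2.24 in atnaod, without overlap. The change there was 0.35 (95% interval 0.10 to 0.61), with an unadjusted p of 0.0131 and an adjusted p over all probes of 0.108 (limma).

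AGL24, the promoter of flowering that AP1 shuts down in the forming flower, rose in atnaod. AGL24 (AT4G24540; chromosome 4, 12670897 to 12674106) stood at -4.14, -3.96 and -4.18 in wild type and at -3.44, -3.57 and -3.34 in atnaod. The lowest atnaod value lay above the highest wild-type value, and within each genotype the arrays differed by at most 0.23. The mean rose from -4.09 ± 0.12 (SD, n = 3) to -3.45 ± 0.12 (SD, n = 3), a change of 0.64 on the log2 scale (SE 0.105, 95% interval 0.39 to 0.89, adjusted p = 0.0287). This is 1.56-fold, with an interval from 1.31-fold to 1.85-fold. It was higher in 3 of 3 atnaod samples, by 0.54 on slide 1 and 0.84 on slide 2.

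The AGL24 probe was dim, and its call was lost in 9 of 18 alternatives. Unscaled, the probe read 170.9, 168.4 and 72.8 in wild-type replicates 1 to 3, against 180.1, 239.7 and 134.1 in atnaod 1 to 3. These unscaled values also depend on the brightness of each array, and the second slide was the dimmer one. The call was lost without any 1 of wild type 1, 2 and 3 or atnaod 2 and 3 (adjusted p from 0.0587 to 0.108), and it held without atnaod 1 (adjusted p = 0.0430). With normexp, run on median spot signals in place of processed ones, the change was 0.42 (adjusted p = 0.169), smaller by over 1.5 times. The deposited values gave a change of 0.47 (adjusted p = 0.173). It was also lost with dim probes kept in the fit (adjusted p = 0.108) and on slide 1 alone (adjusted p = 0.202), and it held with slide as a block (adjusted p = 0.0306). The direction was the same in 18 of 18 alternatives, with changes between 0.42 and 0.71.

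**Figure D2:**
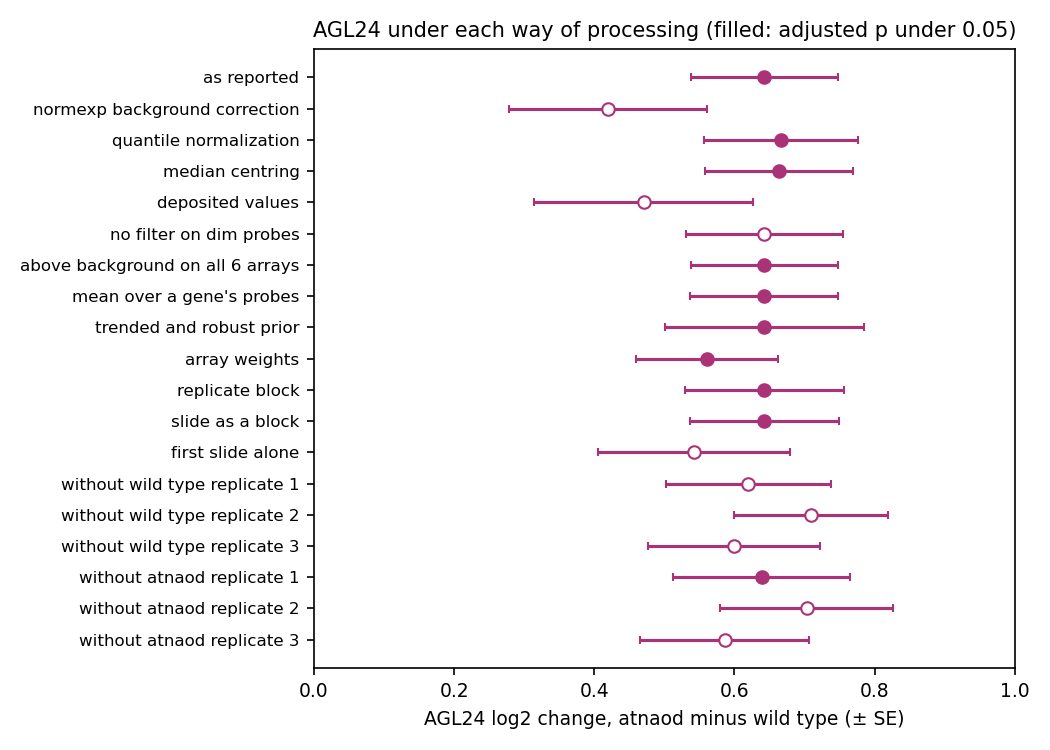
Log2 change of AGL24, atnaod minus wild type, with its SE, as reported and under 18 other ways of processing or sets of samples. Filled points have an adjusted p under 0.05. All points lie between 0.42 and 0.71, and 9 of the 18 alternatives are open.

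SVP, the floral repressor most closely related to AGL24 among these genes, did not pass, and its probes differed in direction. At the main probe SVP (AT2G22540; chromosome 2, 9579647 to 9583901) stood at -0.57, -0.44 and -0.45 in wild type and at -0.88, -0.78 and -0.38 in atnaod. Atnaod 1 and 2 lay below every wild-type sample and atnaod 3 lay above every one. The change was -0.19 (95% interval -0.53 to 0.14, adjusted p = 0.439), with -0.32 on slide 1 and 0.07 on slide 2. It was -0.34 without atnaod 3 and -0.09 without atnaod 1. The second SVP probe stood at -2.46, -2.11 and -2.19 in wild type and at -2.03, -2.17 and -2.04 in atnaod. Its change was 0.17 (95% interval -0.10 to 0.45, adjusted p over all probes = 0.414), with 0.19 and 0.15 on the 2 slides. The 2 probes thus give no common direction for SVP, and where each lies in the transcript was not analysed here.

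**Figure D3:**
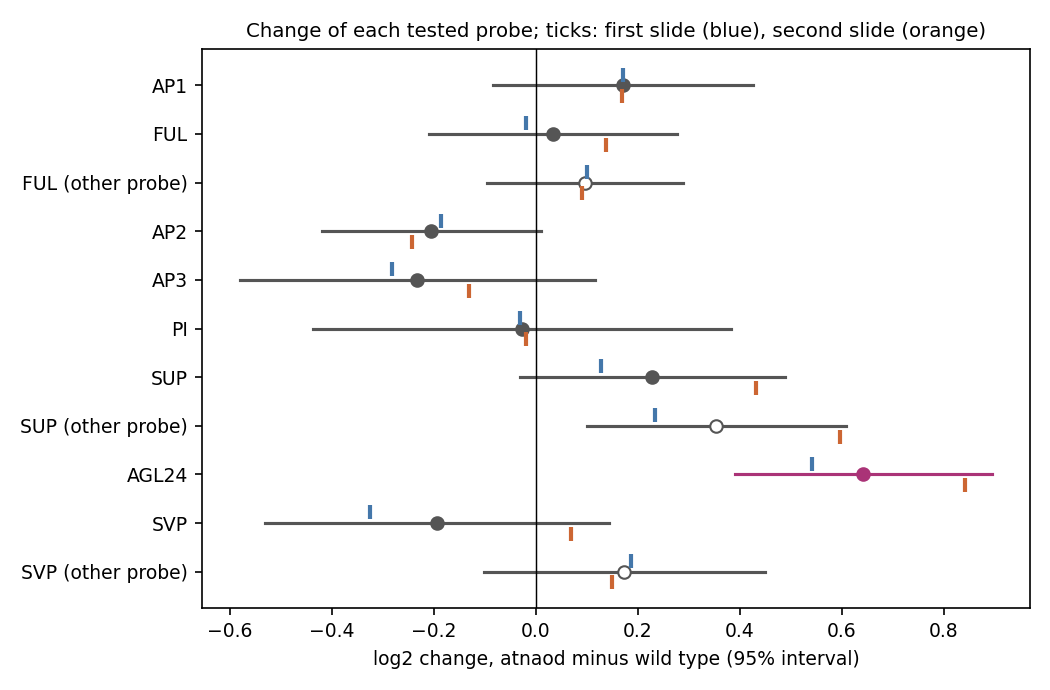
Log2 change of each of the 11 tested probes, atnaod minus wild type, with 95% intervals from the fit on all tested probes. Filled points are the main probe of a gene and open points its other probe, AGL24 is in purple, and ticks give the change on the first slide (blue) and on the second (orange). The AGL24 interval and that of the second SUP probe lie above 0, and the SVP probes lie on opposite sides of 0.

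The 7 genes tested and not called bound any change rather than exclude one. At their main probes the changes lay between -0.23 and 0.23, with limma adjusted p from 0.200 to 0.941. The 95% intervals there reached down to -0.58 (AP3) and up to 0.48 (SUP), that is to 1.49-fold lower and 1.40-fold higher. The second SUP probe went beyond this, with a change of 0.35 and an interval up to 0.61. At the main probes the SDs within a genotype ran from 0.04 (AP2 in wild type) to 0.33 (PI in wild type). The same arrays tended to be extreme in several genes. Wild type 1 was the lowest wild-type sample in 5 of 8 genes (AP1, AP3, PI, SVP and FUL) and wild type 2 the highest in 6. Atnaod 3, which was on the second slide, was the highest atnaod sample in 6 of 8 (AP3, PI, SUP, AGL24, SVP and FUL). In 6 of 8 genes both slides gave a change of the same sign, the exceptions being SVP and FUL. These counts of extreme arrays and of signs were not set against their shares over all genes.

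Related genes were also set against each other within each array, where the scaling between arrays drops out. AGL24 minus SVP, at their main probes, was -3.56, -3.52 and -3.73 in wild type, against -2.56, -2.79 and -2.96 in atnaod. The genotypes were apart, and the difference between AGL24 and SVP shifted by 0.84 in favour of AGL24 (two-sided exact permutation test, p = 0.10, the smallest that 3 against 3 samples allow, and p = 0.15 adjusted over 3 pairs). With the mean over each gene's probes the shift was 0.65. AP3 minus PI was -1.72, -1.90 and -1.88 in wild type, against -2.07, -2.05 and -1.99 in atnaod, a shift of -0.21 without overlap (exact permutation p = 0.10, adjusted p = 0.15). AP1 minus FUL was -1.91, -1.79 and -1.85 in wild type, against -1.62, -1.69 and -1.82 in atnaod, a shift of 0.14 with overlap (exact permutation p = 0.20, adjusted p = 0.20). In this design 0 of the 3 pairs could reach an unadjusted p under 0.05.

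**Figure D4:**
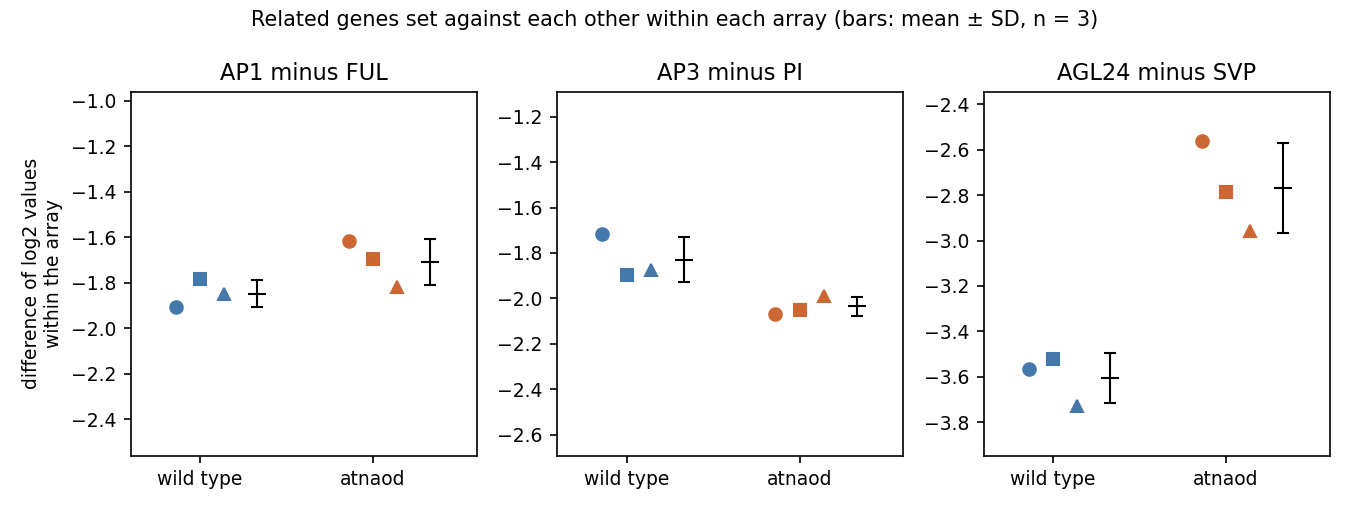
Difference of the log2 values of 2 related genes within each array, for 3 pairs, with wild type in blue, atnaod in orange and the mean ± SD (n = 3) beside them. AGL24 minus SVP moves from -3.61 to -2.77 and AP3 minus PI from -1.83 to -2.04, both without overlap, while AP1 minus FUL overlaps.

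The regulators that act around these genes held 3 rises and 3 falls. The list had 32 genes, of which 31 were tested: floral organ cofactors, flowering-time genes, corepressors and boundary genes. Of the 31, 3 rose and 3 fell (19.4%, against 5.78% of all genes). An unadjusted limma p under 0.05 was found for 10 (32.3%, against 25.8% of all genes). The list was chosen with earlier results of these data known, so its shares are a description and not a test. The genotypes did not overlap in 14 of the 31 (45.2%, against 32.3% of all genes). The list's median change was -0.01, the same to 2 decimals as that of all genes, so that it had no common direction.

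SEU, the corepressor that works with LUG and with AP1, AGL24 and SVP in young flowers, rose by 0.68 (SE 0.0828, adjusted p = 0.0199). It stood at -0.43, -0.56 and -0.48 in wild type and at 0.18, 0.16 and 0.23 in atnaod, with a wide gap between the genotypes. Its partner LUG stood at 0.65, 0.36 and 0.47 in wild type and at 0.66, 0.68 and 0.66 in atnaod, a change of 0.17 that did not pass (adjusted p = 0.325). BOP1 and BOP2, paired regulators of organ boundaries and of the abscission zone that also help to activate AP1, both rose. BOP1 moved from a mean of -5.06 ± 0.26 to -4.16 ± 0.10 (SD, n = 3 each), a change of 0.90 (adjusted p = 0.0282). BOP2 moved from -1.66 ± 0.12 to -1.01 ± 0.06 (SD, n = 3 each), a change of 0.65 (adjusted p = 0.0259).

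The 3 falls were those of TFL1, FT and RBE. TFL1, which keeps the shoot tip indeterminate by opposing LFY and AP1, stood at -3.87, -3.81 and -3.81 in wild type and at -4.65, -4.71 and -5.09 in atnaod. It fell by 0.98 on the log2 scale (SE 0.131, adjusted p = 0.0207). FT, the mobile flowering signal that turns on AP1 and FUL with its partner FD, stood at 1.48, 1.36 and 1.62 in wild type and at 0.98, 0.79 and 0.71 in atnaod, and fell by 0.66 (adjusted p = 0.0311). FD itself was above background on 0 of 6 arrays. RBE, a zinc finger gene of the petal primordium, stood at -3.66, -3.76 and -3.58 in wild type and at -4.43, -4.76 and -4.72 in atnaod, and fell by 0.97 (adjusted p = 0.0199).

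Of the other genes of the list, those with the lowest p were FLC, SMZ, NAP and TOE1. FLC, a repressor of FT that binds with SVP, stood at -0.54 (adjusted p = 0.117), and it passed with array weights at -0.74 (adjusted p = 0.0226). SMZ and TOE1, relations of AP2 that repress flowering, stood at 0.38 (adjusted p = 0.151) and -0.24 (adjusted p = 0.189). NAP, a direct target of AP3 and PI that promotes senescence, stood at 0.28 (adjusted p = 0.155). The SEP genes, whose proteins join AP1, AP3 and PI in complexes, were not called: SEP1 to SEP4 stood at -0.09, -0.03, -0.08 and 0.02, with adjusted p of 0.678 or more. AP1's closest relation CAL stood at -0.01 (adjusted p = 0.977), the floral integrator SOC1 at 0.12 and the stamen and carpel identity gene AG at -0.15, and none of these was called. WUS, the stem cell gene, was named after its values were seen. It was well above background on 3 of 3 wild-type arrays but on only 2 of 3 atnaod arrays, so that its difference of -0.88 (SE 0.410, adjusted p = 0.231) rests in part on a reading in the background. It passed once replicate numbers entered the fit as a block (adjusted p = 0.0459), a fit that called 5.39% of all genes.

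**Figure D5:**
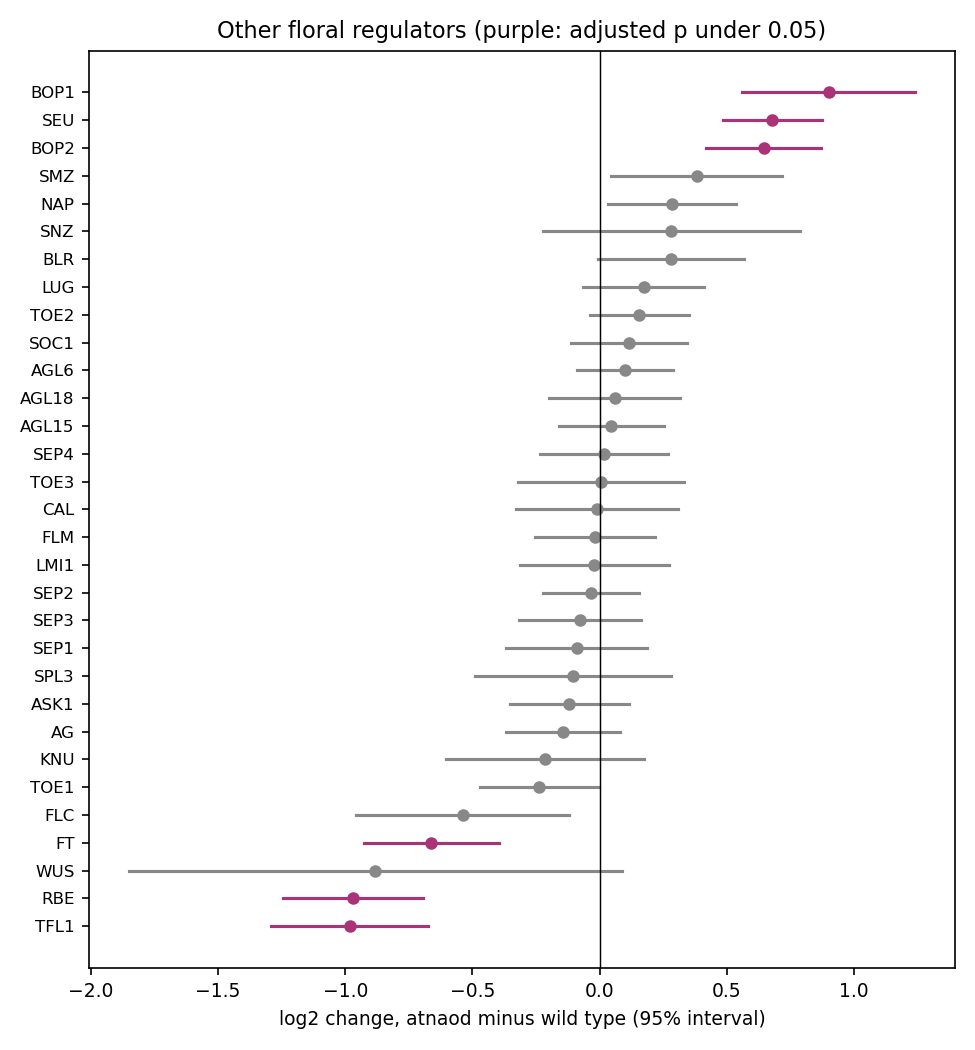
Log2 change, atnaod minus wild type, with 95% intervals, of the 31 tested floral regulators outside the 10 identity genes, ordered by change. BOP1, SEU and BOP2 (purple) are higher and TFL1, RBE and FT (purple) lower at an adjusted p under 0.05, and the changes of the other 25 genes lie between -0.88 and 0.38.

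These 6 calls rested on most of the samples as well. All 6 held without atnaod 1, 4 without wild type 1 (BOP2, RBE, SEU and TFL1), 1 without atnaod 3 (TFL1), and 0 without wild type 2, wild type 3 or atnaod 2. With the deposited values, with dim probes kept or on slide 1 alone, 0 of the 6 were called. With normexp BOP2, FT and SEU were still called, while TFL1 at -0.51, RBE at -0.64 and BOP1 at 0.53 were smaller by over 1.5 times and lost the call. The probes of TFL1, RBE and BOP1 were dim. TFL1 and RBE had atnaod means of -4.81 and -4.64 and BOP1 a wild-type mean of -5.06, against detection floors between -7.29 and -6.17.

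Markers of other floral tissues moved in the same samples. In bulk tissue, fewer cells of a type and less RNA per cell cannot be told apart. The counts below stand against 2.72% of all genes called higher and 3.06% called lower, and a summed level (linear intensity over the array's 75th percentile, added over a list) follows its brightest probes. Of 7 markers of the inflorescence meristem and young bud, 6 were tested, 1 rose and 1 fell, with 4 changes above 0, 2 below and a median of 0.11. The rise was that of STM, a meristem gene also expressed in carpels, at 0.64 (adjusted p = 0.0375), and the fall was that of TFL1. KNAT1 stood at 0.37 and was not called, and CLV3 was read above background on 0 of 6 arrays. The summed level of the list was 6.05 to 6.33 in wild type, against 7.92 to 8.92 in atnaod.

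The 7 carpel and ovule markers moved in both directions, with 4 changes above 0, 3 below and a median of 0.05. The 3 below 0 were called (STK at -0.73, SHP1 at -0.49 and SHP2 at -0.48). CRC at 0.59, BEL1 at 0.14, SPT at 0.15 and INO at 0.05 were not called, although CRC and BEL1 were higher in each atnaod sample than in any wild-type sample. With the replicate block CRC passed (adjusted p = 0.0434). The summed level was 15.7 to 17.3 in wild type, against 11.4 to 12.5 in atnaod. Of 7 endosperm and embryo markers 5 were tested, 0 rose and 1 fell, LEC1 at -0.68, with 5 changes below 0 and a median of -0.40. Their summed levels were 0.294 to 0.321 in wild type, against 0.192 to 0.268 in atnaod. The calls of STM, STK, SHP1 and SHP2 were each lost in 9 of 18 alternatives and that of LEC1 in 8 of 18, among them normexp, where LEC1 stood at -0.35. The LEC1 probe was dim, with means of -4.80 in wild type and -5.48 in atnaod.

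Other tissues showed no call. Mature pollen markers (9 of 10 tested, 0 called, 1 at an unadjusted limma p under 0.05) summed to 14.5 to 17.8 in wild type, against 12.4 to 25.8 in atnaod. Of their 9 changes 8 were above 0 and 1 below, with a median of 0.24. The gene at an unadjusted p under 0.05 was VEX1, with the largest change of the list (0.77). It was well above background on 1 of 3 wild-type and 3 of 3 atnaod arrays. VEX1 thus passed the filter through atnaod alone, and its change rests in part on readings in the background. Of 8 tapetum and young anther markers 5 were not above background on any array, 2 were tested and 0 were called, with 1 at an unadjusted limma p under 0.05. Their summed levels were 0.364 to 0.464 in wild type and 0.478 to 0.504 in atnaod, without overlap, with 1 change above 0 and 1 below. Green tissue markers (4 tested) and markers of senescing organs (3 tested) gave 0 calls with limma and 0 at an unadjusted p under 0.05, with summed levels that overlapped between the genotypes. All 4 green tissue changes were below 0, with a median of -0.12, as were 2 of the 3 of senescing organs. The part of any of these tissues in the values of AGL24 and of the regulators was not tested.

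The genes whose pattern over the 6 arrays was most like that of AGL24 were MIZ1, SIGA and CYCD7;1. Among 9252 genes with a symbol, their Pearson correlations with AGL24 were 0.993, 0.993 and 0.991. The 6 arrays fall into 2 genotypes, so these values mostly restate that each gene differed between them in the same direction, and 146 genes with a symbol had a correlation above 0.95. MIZ1, known from root hydrotropism, rose by 0.61 (adjusted p = 0.0259). SIGA, a sigma factor of the plastid RNA polymerase, rose by 0.68 (adjusted p = 0.0226). CYCD7;1, a D-type cyclin, rose by 0.75 (adjusted p = 0.0321), a call lost with the replicate block (adjusted p = 0.0513).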

How the data were processed

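Total RNA of whole flowers (200 ng, labelled with Cy3) was read on 6 single-colour Agilent arrays of 45220 spots, 43603 probes without controls. Per the file headers, the authors' scanner files hold spot intensity from Agilent Feature Extraction 10.5.1.1 (10.5 per the submitters' processing notes), with the background subtracted and the spatial trend removed within the array. The deposited values are intensity as well and equal, to within 1%, each array's median spot signals multiplied by a single factor.

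The log2 of processed intensity minus the array's 75th percentile was used. Spots marked as outliers were left out and spots of a probe averaged. Probes were kept (32495) where every array of either genotype read them well above background, and a gene took its probe of highest mean. The detection floor is the lowest signal of a probe well above background on the array. Genes were compared with limma 3.58.1 (R 4.3.3, with the data.table package, version 1.17.8), two-sided, with Benjamini-Hochberg adjustment over 24456 genes. A call is an adjusted p under 0.05. The fit was also run on simulated data without a slide effect, with planted changes larger than those reported for the floral genes and regulators. That run does not bear on changes of their size.

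Named are the 10 genes, AtNAOD, called members of the other lists, 4 further regulators of lowest p, and the 3 genes most correlated with the gene of lowest p. Other genes of the lists were named after their values were seen. The genes and lists were chosen with earlier results of these data known. TAIR10.1 gave gene positions. After subtraction of the genotype means, samples of the same number correlated over genes at 0.190, 0.111 and 0.535 for numbers 1 to 3. Other combinations gave -0.354 to 0.215, a range that holds the values of numbers 1 and 2. Number 3 was also the second slide, so pairing by number and slide cannot be told apart there. A block of replicate numbers was fitted as an alternative, although the values do not show numbers 1 and 2 to be pairs. The other alternatives were normexp (offset 50), quantile and median scaling, the deposited values, other filters, the mean over probes, another prior, array weights, slide, and leaving out each sample. Normexp was run on the median spot signal, with local backgrounds over 10 times the array's median set to that median. The other probe of SUP, SVP and FUL was added after seeing the data.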

Additional observations from a re-analysis of the deposited data

How the results depend on the processing

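The 18 alternatives to the reported processing kept the direction of AGL24, AP1, AP3, AP2 and SUP and of the 3 pair differences where these could be computed, though AP1 was as low as 0.079 (array weights), SUP 0.13 (first slide alone) and SVP, with the mean over its probes, -0.010. PI, with a reported change of -0.027, turned to 0.031 with quantile normalization, and its values ranged from -0.22 to 0.095 when 1 sample was left out. FUL, reported at 0.033, turned to -0.045 with array weights and to -0.019 on the first slide alone, and ranged from -0.034 to 0.087 when 1 sample was left out. SVP turned to 0.17 at its other probe, a choice made after seeing the data. Of the 8 tested genes 0 were called by limma with normexp, with the deposited values, with dim probes kept or on the first slide alone, with 1, 1, 1 and 2 at an unadjusted p under 0.05, and 0 to 1 without 1 sample. Regulators around them, 6 called as reported, gave 3 calls with normexp, 0 with the deposited values, 0 with dim probes kept and 0 on the first slide alone (7, 7, 9 and 6 at an unadjusted limma p under 0.05), and 0 to 6 without 1 sample. Over all genes, an unadjusted limma p under 0.05 was found for 4760 of 24456 with normexp and 4709 of 24456 with the deposited values. With dim probes kept it was found for 6068 of 34176, and on the first slide alone for 3767 of 24714. All genes called, 1414 as reported, were 243 with normexp, 12 with the deposited values, 22 with dim probes kept, 27 on the first slide alone, 2124 with slide as a block, 2259 with a trended and robust prior and 3897 with array weights. Leaving out 1 sample gave 14 (atnaod 2) to 1468 (atnaod 1), with 567, 20 and 21 for wild type 1, 2 and 3 and 137 for atnaod 3. The first slide alone and the fits without 1 sample hold fewer samples, and the cause of the other moves was not tested. The replicate block called 1317 genes, 1 of the 8 identity genes (AGL24) and 7 regulators, WUS among them. It added the calls of CRC and of WUS, whose signal was well above background on only 2 of 3 atnaod arrays. The block lost the call of CYCD7;1 and changed no other call of AtNAOD, the 10 genes, the lists, MIZ1 or SIGA. Array weights added FLC. LFY and UFO were not well above background on any array, and exact tests were not run with array weights or another prior.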
